A study of Mus musculus with 4 samples.

Results

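Collagens are extracellular matrix proteins whose chains carry a repeat of glycine followed by a pair of other residues, which lets 3 chains wind into a helix. The genes described here are the protein-coding mouse genes with a symbol of the form Col, number, a, number, and 44 of the 55421 genes listed in the count files met that rule. The RNA came from prefrontal cortex (PFC) of newborn mice at postnatal day 0, strain C57BL/6, genotype WT, which was dissociated and kept in culture for 10 days. There were 4 libraries of total RNA. Of these, 2 came from cultures that received fibroblast growth factor 2 (FGF2, 5 ng/mL), and 2 came from cultures of the same medium and time that did not receive it, called untreated here. According to the protocol in the labels, the meninges and vessels were peeled off the cortex, and no sorting or selection step for cells is described, so each library holds the RNA of a mixed culture. The libraries are called replicates 1 and 2 of each group. The labels do not say that they came from separate cultures, and the methods mention technical replicates, so every p-value measures only the spread between these libraries, which may be technical. In bulk samples of this kind, fewer cells of a type and less RNA per cell cannot be told apart.

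Collagen classes differ in the shape they build. Fibrillar collagens make the banded fibers of skin, bone and cartilage, type IV collagens make the sheet-like network of basement membranes, type VI collagens make beaded filaments, and the FACIT collagens (fibril-associated collagens with interrupted helices) sit on the surface of fibrils. Transmembrane collagens are anchored in the cell membrane and can be shed, and the multiplexins types XV and XVIII belong to basement membrane zones. In the brain, collagen is found mainly in the meninges and around vessels, where type IV collagen is a main component of the vascular basement membrane, while several single collagens are also made by neurons and glia. A collagen chain is hydroxylated, folded and cross-linked by a set of dedicated enzymes, and cells sense collagen through integrins, discoidin domain receptors and adhesion receptors.

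The repeat can be read in the genes themselves. In the longest coding transcript of each gene, the longest unbroken run of codon triplets that begin with a glycine codon (GGN) had 216 to 344 repeats in the 11 fibrillar genes, with a median of 338. It had 39 to 66 repeats in the 6 type IV genes, 37 to 87 in the 6 type VI genes and 32 to 113 in the 9 FACIT genes, where interruptions split the helix. Fibrillar genes carried 21 to 33 coding exons of exactly 54 bases, a length that fits 6 repeats, while the type IV genes carried 1 to 3 of them. The exons below (mm10, GENCODE M21) are shown because the genes they come from differed in direction with FGF2 although they share this building unit. Each is the first 54-base coding exon of its gene that reads as 6 repeats, and the capitals mark the glycine codon that opens each repeat.
Col11a1, coding exon 15, chr3:114108281-114108334, plus strand: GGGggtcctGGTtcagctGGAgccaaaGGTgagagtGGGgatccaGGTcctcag
Col2a1, coding exon 6, chr15:97998545-97998598, minus strand: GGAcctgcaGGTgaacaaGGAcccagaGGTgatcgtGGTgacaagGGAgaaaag
Col1a1, coding exon 8, chr11:94939904-94939957, plus strand: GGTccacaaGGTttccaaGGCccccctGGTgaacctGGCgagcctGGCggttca
Col1a2, coding exon 8, chr6:4515481-4515534, plus strand: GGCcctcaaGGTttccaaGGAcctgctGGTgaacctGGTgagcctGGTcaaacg
Col12a1, coding exon 54, chr9:79614349-79614402, minus strand: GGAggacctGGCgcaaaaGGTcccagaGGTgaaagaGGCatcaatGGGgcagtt
Col9a1, coding exon 11, chr1:24202014-24202067, plus strand: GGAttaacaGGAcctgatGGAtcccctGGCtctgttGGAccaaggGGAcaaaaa
Col4a6, coding exon 13, chrX:141216444-141216497, minus strand: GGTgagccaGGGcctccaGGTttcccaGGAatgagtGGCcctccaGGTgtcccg
All 7 exons hold 6 repeats that each open with a glycine codon. Col11a1, Col2a1, Col12a1, Col9a1 and Col4a6 were higher with FGF2 and Col1a1 and Col1a2 were lower, as described below.

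The 6 type IV genes lie in 3 head-to-head pairs, in which both members are read away from a shared stretch of DNA. Col4a1 and Col4a2 lie on chromosome 8 and overlap by 22 bases at their starts, Col4a4 and Col4a3 lie on chromosome 1 with 71 bases between them, and Col4a6 and Col4a5 lie on chromosome X with 1308 bases between them. The promoter windows of one pair whose members were both higher with FGF2, and of the pair in which neither was called higher, are shown to let them be compared. Each window runs from 250 bases before to 50 bases after the gene start (RefSeq, GRCm38.p6, 300 bases). The capitals mark the matches on either strand to the TATA motif TATAAA, the CCAAT box, the GC box GGGCGG, the AP-1 motif TGANTCA and the motif ACAAAG bound by SOX factors, and no matches overlap in the windows printed.
Col4a6, chrX:141474027-141474326, minus strand: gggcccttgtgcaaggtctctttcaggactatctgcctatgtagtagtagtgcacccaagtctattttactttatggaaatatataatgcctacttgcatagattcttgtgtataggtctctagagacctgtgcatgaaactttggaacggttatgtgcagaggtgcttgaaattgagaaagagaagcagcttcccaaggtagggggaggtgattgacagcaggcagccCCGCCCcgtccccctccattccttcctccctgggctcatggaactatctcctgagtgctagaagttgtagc
Col4a5, chrX:141475169-141475468, plus strand: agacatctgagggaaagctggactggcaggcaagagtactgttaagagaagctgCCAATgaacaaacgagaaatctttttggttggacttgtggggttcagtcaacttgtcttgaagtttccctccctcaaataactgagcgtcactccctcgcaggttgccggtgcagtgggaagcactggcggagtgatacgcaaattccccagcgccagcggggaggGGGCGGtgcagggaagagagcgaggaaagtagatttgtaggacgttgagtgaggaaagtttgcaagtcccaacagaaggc
Col4a1, chr8:11312777-11313076, minus strand: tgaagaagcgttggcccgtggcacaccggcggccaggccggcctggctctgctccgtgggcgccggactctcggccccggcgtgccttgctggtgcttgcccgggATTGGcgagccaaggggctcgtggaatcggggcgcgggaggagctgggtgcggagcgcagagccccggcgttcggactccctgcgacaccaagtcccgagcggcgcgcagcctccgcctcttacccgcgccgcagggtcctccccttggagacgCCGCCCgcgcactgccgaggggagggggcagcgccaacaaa
Col4a2, chr8:11312555-11312854, plus strand: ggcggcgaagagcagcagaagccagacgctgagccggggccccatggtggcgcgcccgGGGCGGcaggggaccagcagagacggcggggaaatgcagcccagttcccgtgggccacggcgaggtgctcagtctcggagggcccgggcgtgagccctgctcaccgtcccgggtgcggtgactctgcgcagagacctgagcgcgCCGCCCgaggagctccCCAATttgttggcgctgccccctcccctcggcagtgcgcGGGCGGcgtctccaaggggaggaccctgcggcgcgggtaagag
The windows of Col4a1 and Col4a2 shared 78 bases, while 842 bases lay between those of Col4a5 and Col4a6. All 4 windows held a GC box, and GC content was 48.3% for Col4a6, 52.7% for Col4a5, 74.0% for Col4a1 and 73.7% for Col4a2. The windows of Col4a1 and Col4a2 held 37 and 33 CpG dinucleotides, and those of Col4a6 and Col4a5 held 3 and 11. Promoter windows were found for 35 of the 44 collagen genes, as 38 windows. The table held no entry for Col12a1, Col14a1, Col1a1, Col22a1, Col26a1, Col2a1, Col4a3, Col5a2 and Col9a3. Of the collagen windows, 60.5% held a GC box, beside 60.5% of the windows of all genes tested here and 35.7% of all 32851 windows. A TATA motif was found in 13.2% of the collagen windows, a CCAAT box in 34.2%, the AP-1 motif in 2.63% and ACAAAG in 13.2%, beside 7.42%, 37.5%, 5.08% and 14.0% of the windows of genes tested. Over all windows the shares were 13.6%, 37.4%, 7.81% and 18.7%. The collagen windows include those of untested genes, and the TATA matches include the untested Col10a1, Col13a1 and Col17a1. No TATA motif was found in the 9 windows of 8 collagen genes called higher or the 9 windows of 9 called lower. At the 7.42% share of genes tested, few matches would be found in so few windows. These matches describe letters in a window and say nothing about a factor.

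Counts on genes totalled 9166432 to 10799886 per library, so that a count of 3 was worth 0.277 to 0.331 CPM (the count divided by the TMM-scaled library total and set to a common depth). Of the 44 collagen genes, 39 were measured, meaning more than 10 counts in at least 1 library. Col8a1, Col10a1, Col13a1, Col17a1 and Col24a1 were not measured, with at most 6 counts in any library, which does not show that they were absent. A total of 37 collagen genes passed the expression filter of edgeR and were tested. The measured but untested genes were Col6a6, with 11 and 1 counts with FGF2 and 9 and 5 in untreated cultures, and Col28a1, with 0 and 12 counts with FGF2 and 0 and 9 in untreated cultures. For Col28a1 the replicates of each group differed more than the groups did, since both replicates 1 had 0 counts, and 0 counts allow up to 0.331 CPM with FGF2 and 0.286 CPM in untreated cultures, counting error only.

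Of the 37 collagen genes tested, 12 were higher with FGF2, 11 were lower and 14 did not pass the test (edgeR quasi-likelihood test, adjusted p below 0.05 over 17144 genes). The 23 genes called made up 62.2% of those tested, beside 40.5% of all genes tested in either direction. In the higher direction the share was 32.4% of the collagen genes beside 20.7% of all genes, and in the lower direction it was 29.7% beside 19.9%. Changes of more than 1 on the log2 scale that passed the test were found for 10 collagen genes in the higher direction and 5 in the lower, or 27.0% and 13.5%, beside 5.22% and 2.38% of all genes tested. The groups did not overlap for 16 collagen genes with FGF2 higher and 14 with FGF2 lower, in a background of 33.6% and 33.4%. The median log2 fold change was 0.02 over the collagen genes and -0.0008 over all genes tested, while the median size of the change was 0.62 beside 0.28. The collagen genes as a group thus had no common direction, and single members changed in both. Of the 12 genes called higher, 10 stayed so in every one of 14 alternative analyses that gave them a value, and of the 11 called lower, 4 did. With the replicate number as a block and offsets for GC content and length, 13 were called higher and 7 lower. The median GC content of the tested collagen genes was 55.7% and their median exonic length 7.97 kb, beside 48.8% and 3.995 kb over all genes tested. Their median level was 9.42 CPM beside 19.6 CPM over all genes tested, so the median sizes of change were not compared at equal depth.

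**Figure D1:**
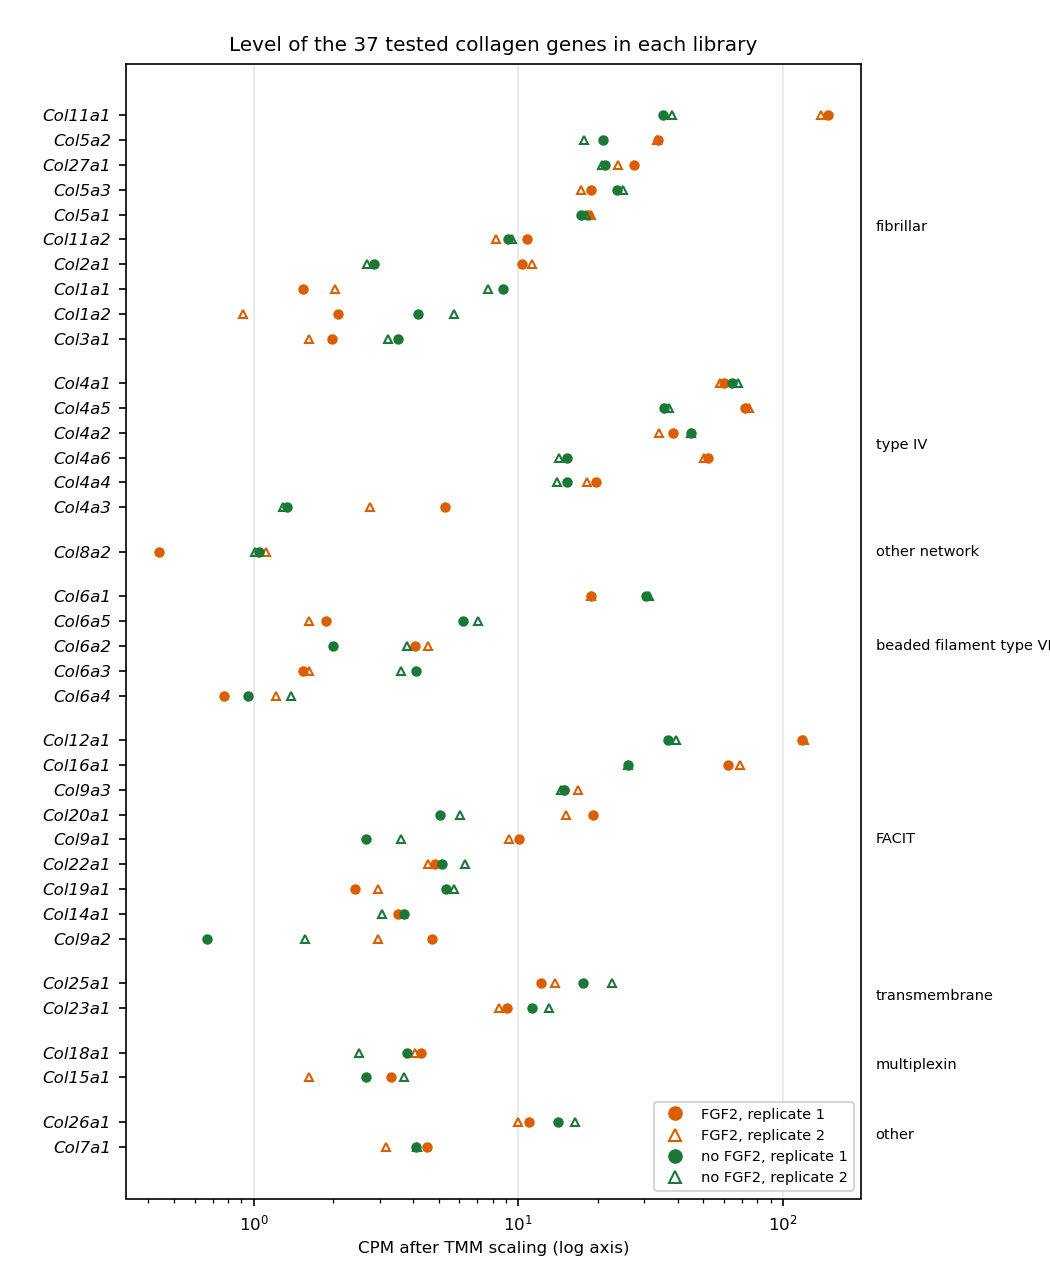
Level of each of the 37 tested collagen genes in each library, in CPM after TMM scaling on a log axis, with genes grouped by collagen class and sorted by mean level. Orange marks are FGF2 and green marks untreated, circles replicate 1 and triangles replicate 2. Col11a1 and Col12a1 stood above 118 CPM in both FGF2 libraries and below 40 CPM in both untreated libraries, while the marks of Col1a1 lay in the opposite order.

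**Figure D2:**
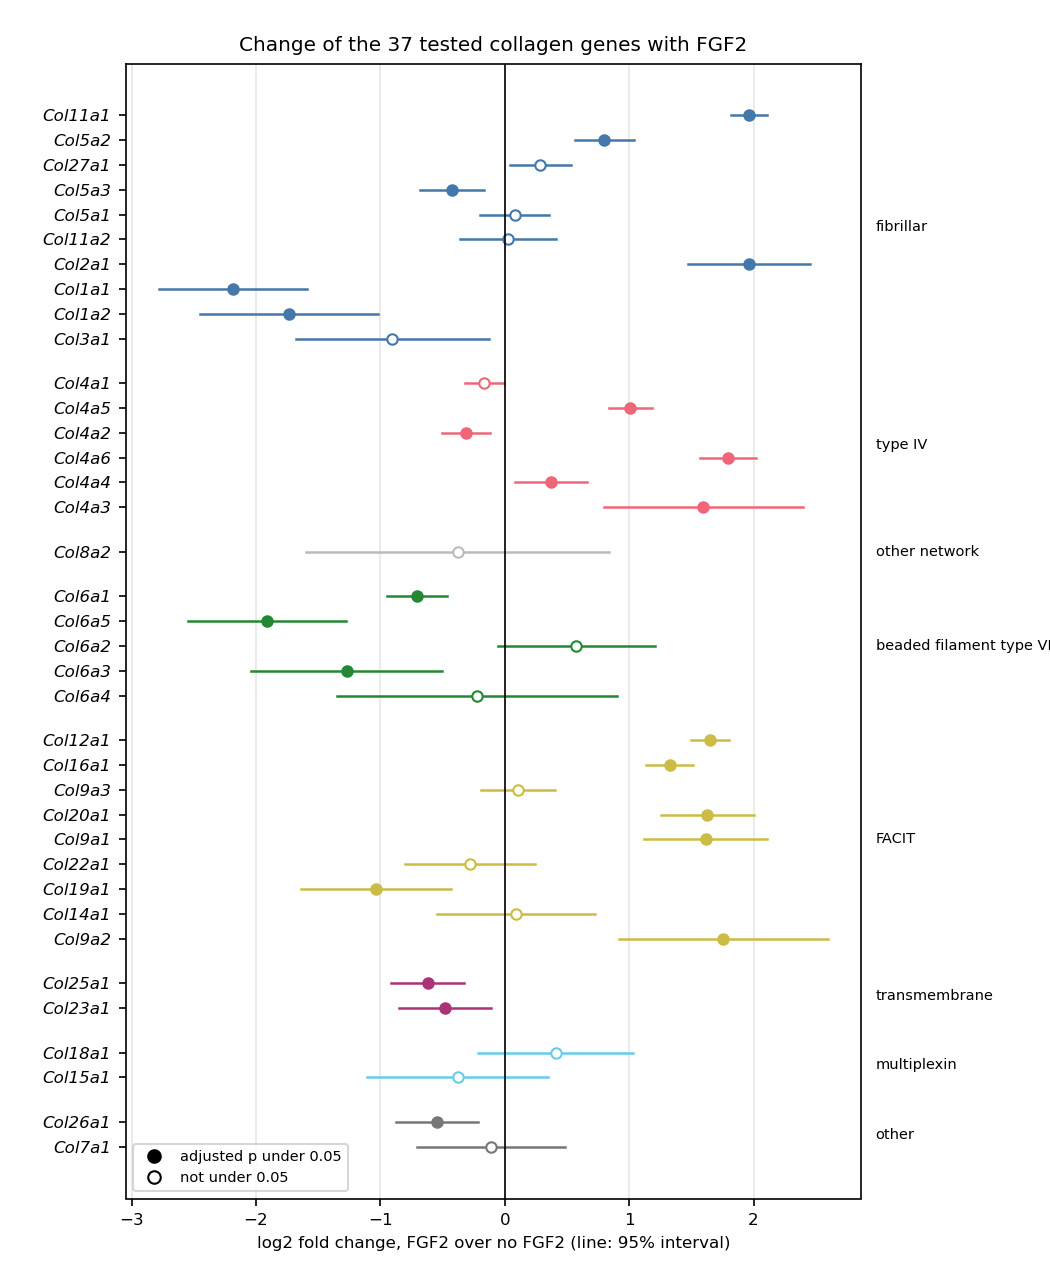
Change of each tested collagen gene with FGF2, as log2 fold change over untreated cultures with its 95% interval, by class. Filled points passed the test and open points did not. The points lie on both sides of 0, from Col1a1 at -2.18 to Col11a1 at 1.97, and within the FACIT class 5 of 9 lie above 1.

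The summed level of all 44 collagen genes was 835 and 812 CPM with FGF2 and 523 and 547 CPM in untreated cultures, so the mean was 1.54 times as high with FGF2. In CPM, most of that difference came from Col11a1 and Col12a1, which have 12.7 and 15.2 kb of exonic sequence. CPM is not scaled for length, so such long genes weigh more in these sums and in the shares below. Without Col11a1 and Col12a1 the sums were 569 and 552 CPM with FGF2 and 451 and 469 CPM in untreated cultures, a ratio of 1.22. Col11a1 made up 17.7% and 17.2% of all collagen CPM with FGF2 and 6.75% and 6.98% in untreated cultures. Col12a1 made up 14.2% and 14.9% with FGF2 and 7.04% and 7.23% in untreated cultures. By class, the ratio of the mean sums was 1.79 for the fibrillar genes, 1.36 for type IV, 2.34 for the FACIT genes and 1.05 for the multiplexins, and it was 0.613 for type VI and 0.675 for the transmembrane genes. The FACIT share of collagen CPM was 28.8% and 30.1% with FGF2 and 19.2% and 19.4% in untreated cultures, and the type VI share was 3.39% and 3.46% with FGF2 and 8.51% and 8.66% in untreated cultures. Type IV made up 29.6% and 29.3% with FGF2 and 33.7% and 32.8% in untreated cultures, so its share was smaller with FGF2 although its sum was larger.

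**Figure D3:**
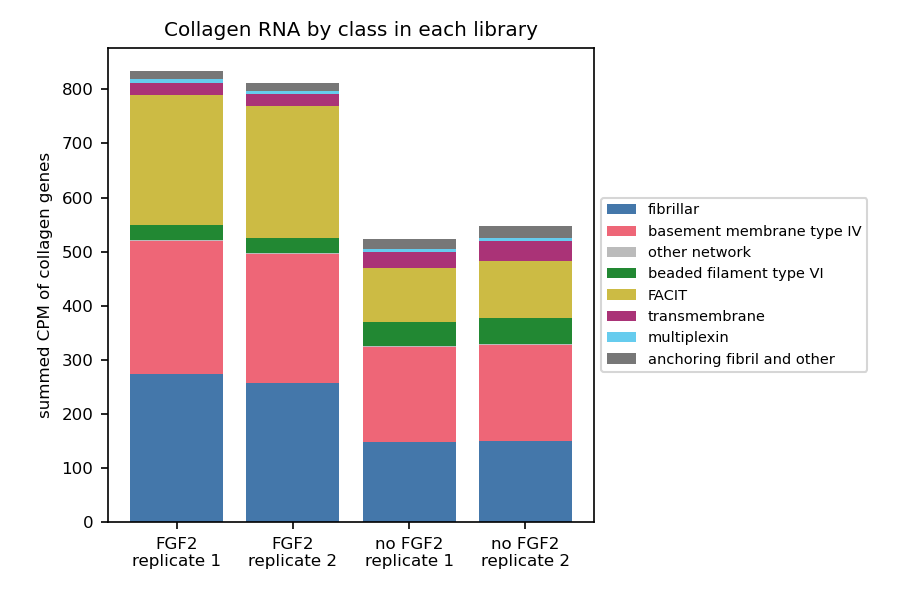
Summed CPM of the 44 collagen genes in each library, stacked by class and not scaled for gene length. The bars reach 835 and 812 CPM in the FGF2 libraries and 523 and 547 CPM in the untreated libraries, and the FACIT segment shows the largest rise among the classes, from 100.4 and 106 CPM to 240.1 and 245 CPM.

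Levels of different genes can only be set side by side per length. Per kb of exonic sequence, Col4a1 (8.83 CPM per kb), Col6a1 (7.03), Col4a2 (6.78) and Col4a5 (5.41) stood highest in the mean of the untreated cultures, so the leading genes belonged to the basement membrane and beaded filament classes. With FGF2 the highest were Col11a1 (11.3 CPM per kb), Col4a5 (10.9), Col16a1 (9.67) and Col4a1 (7.89). In this order of 44 genes, Col11a1 moved from rank 8 to rank 1 and Col6a1 from rank 2 to rank 8. Col1a1, the main chain of type I collagen in skin and bone, was at rank 19 in untreated cultures and rank 31 with FGF2.

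Among the 11 fibrillar genes, 10 were tested, 3 were higher with FGF2, 3 were lower and 4 did not pass the test, so that the share in each direction was 30.0%, beside 20.7% and 19.9% of all genes tested. Col11a1 (chromosome 3, 114030540 to 114220718) encodes a chain of the minor fibrillar collagen XI, which sits inside collagen fibrils. It had 1339 and 1373 counts with FGF2 but 371 and 413 in untreated cultures, or 143.6 ± 5.63 CPM against 36.7 ± 2.01 CPM (SD, n = 2). Both libraries with FGF2 were far above both without it. The log2 fold change was 1.97 ± 0.07 (SE), a 3.91-fold higher level, with an adjusted p of 2.37e-148. Col2a1 (chromosome 15, 97975602 to 98004695), the main collagen of cartilage, was at 10.4 and 11.3 CPM with FGF2 and 2.86 and 2.68 CPM in untreated cultures. Its log2 fold change was 1.96 ± 0.25 with an adjusted p of 7.22e-14. Col5a2, a chain of the regulatory collagen V, was at 33.8 and 33.5 CPM with FGF2 and 20.9 and 17.7 CPM in untreated cultures. The groups did not overlap, and the log2 fold change was 0.80 ± 0.12 with an adjusted p of 3.75e-10.

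Both chains of type I collagen were lower with FGF2. Col1a1 (chromosome 11, 94936224 to 94953042) had 14 and 20 counts with FGF2 but 92 and 83 in untreated cultures, or 1.54 and 2.03 CPM against 8.76 and 7.67 CPM. Its log2 fold change of -2.18 ± 0.30 was the lowest of the tested collagen genes, with an adjusted p of 5.99e-12. Col1a2 (chromosome 6, 4504814 to 4541544) had 19 and 9 counts with FGF2 but 44 and 62 in untreated cultures. These counts are low, the log2 fold change was -1.73 ± 0.36 and the adjusted p was 1.19e-05. Col3a1, the chain of type III collagen that accompanies type I in soft tissues, had 18 and 16 counts with FGF2 but 37 and 35 in untreated cultures. It did not pass the test, with a log2 fold change of -0.90 ± 0.39 and an adjusted p of 0.0542, although its groups did not overlap. With upper quartile scaling, total count scaling or at least 10 counts in every library its adjusted p was 0.0465, 0.0492 and 0.0299.

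The remaining fibrillar genes differed less. Col5a3 was at 18.8 and 17.3 CPM with FGF2 and 23.6 and 24.8 CPM in untreated cultures, with a log2 fold change of -0.42 ± 0.13 and an adjusted p of 0.00462. This call was kept in 9 of 14 alternatives. Its adjusted p was 0.0553 without FGF2 replicate 2 and 0.0654 without untreated replicate 2, 0.128 with DESeq2 and 0.112 with GC and length offsets. Col27a1 was at 27.3 and 23.9 CPM with FGF2 and 21.2 and 20.7 CPM in untreated cultures, with a log2 fold change of 0.29 ± 0.13 and an adjusted p of 0.0561, which was 0.0307 without FGF2 replicate 2 and 0.00265 with GC and length offsets. Col5a1 and Col11a2 stayed near 0, with log2 fold changes of 0.08 (95% interval -0.20 to 0.36) and 0.02 (-0.36 to 0.41). Collagen V and collagen XI chains thus did not move alike within their own types. Col5a2 rose while Col5a3 fell, and Col11a1 rose while Col11a2 showed no detectable difference.

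Fibroblasts of the meninges and vessel wall are a known source of type I and type III collagen, so fibroblast markers were read beside these genes. Of 11 markers, 4 passed the expression filter. Of these, 1 was higher with FGF2 (Fbln1) and none was lower, beside 20.7% and 19.9% of all genes tested. The summed level was 31.1 and 30.5 CPM with FGF2 and 25.2 and 24.9 CPM in untreated cultures. Fbln1 alone was at 24.1 and 25.7 CPM with FGF2 and 16.8 and 18.9 CPM in untreated cultures. Dcn and Foxc1 were not called, with log2 fold changes of -0.09 and 0.17. At most 3 counts in every library were found for 3 of the 11, and the defining marker Lum had 1 to 4 counts. Slc6a13, a marker of meningeal fibroblasts, had 7 and 1 counts with FGF2 but 16 and 11 in untreated cultures, with an adjusted p of 0.0557, and Slc22a6 had 0 counts in both libraries with FGF2 and 4 and 3 counts in untreated cultures. The mural list, for the muscle and pericyte cells of vessel walls, held 2 higher and 2 lower genes of 7 tested. This was 28.6% in each direction, beside 20.7% and 19.9% of all genes tested. Its summed level was 110.0 and 101 CPM with FGF2 and 88.5 and 89.1 CPM in untreated cultures. Pdgfrb alone was at 49.2 and 46.6 CPM with FGF2 and 28.6 and 28.9 CPM in untreated cultures. Tagln and Vtn were lower with FGF2, Pdgfrb and Rgs5 were higher, and Kcnj8, Abcc9 and Des had at most 3 counts. Of 8 endothelial markers, 3 were tested, and they did not move alike. Flt1 was higher, with 52 and 36 counts with FGF2 but 6 and 9 in untreated cultures. Kdr was lower, with 12 and 20 counts against 24 and 46, and Pecam1 was not called. Cldn5 had 0 counts in every library. The summed level of the endothelial list was 10.4 and 8.13 CPM with FGF2 and 5.71 and 9.51 CPM in untreated cultures. The part of any of these cells in the collagen values was not tested.

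The type IV genes are given by their head-to-head pairs. Of the 6 genes, all tested, 4 were higher with FGF2 and 1 was lower, or 66.7% and 16.7% beside 20.7% and 19.9% of all genes tested. Both members of the Col4a5 and Col4a6 pair were higher. Col4a5 (chromosome X, 141475385 to 141689234) was at 71.6 and 74.6 CPM with FGF2 and 35.6 and 37.0 CPM in untreated cultures, a log2 fold change of 1.01 ± 0.09 with an adjusted p of 2.55e-29. Col4a6 (chromosome X, 141165403 to 141474076) was at 51.9 and 50.3 CPM with FGF2 and 15.2 and 14.2 CPM in untreated cultures. It changed by 1.79 ± 0.12 on the log2 scale with an adjusted p of 1.30e-51, so the rise was larger than that of its partner and the 95% intervals of both (1.57 to 2.02 and 0.84 to 1.18) did not overlap. The ratio of Col4a6 to Col4a5 counts was 0.725 and 0.674 with FGF2 and 0.428 and 0.384 in untreated cultures.

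In the Col4a3 and Col4a4 pair both members were also called higher, with weaker support. These chains build the basement membrane of the kidney glomerulus together with the Col4a5 chain. Col4a3 had 48 and 27 counts with FGF2 but 14 and 14 in untreated cultures, a log2 fold change of 1.60 ± 0.41 with an adjusted p of 4.09e-04. The call was kept in 13 of 14 alternatives, with log2 fold changes of 1.05 to 2.00 over all of them. It was lost without FGF2 replicate 1, a fit that also has fewer libraries. Col4a4 was at 19.6 and 18.2 CPM with FGF2 and 15.2 and 14.0 CPM in untreated cultures, a log2 fold change of 0.37 ± 0.15 with an adjusted p of 0.0329. It was called in 10 of 14 alternatives, and the adjusted p was 0.158 without FGF2 replicate 1, 0.0767 and 0.222 without untreated replicate 1 and 2, and 0.288 with DESeq2. Col4a3 shares 563 exonic bases with the opposite-strand transcript C430014B12Rik, which had 0 to 8 counts, and the strand setting of the counting is not given in the sources used here.

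The Col4a1 and Col4a2 pair, the chains of the common basement membrane found around vessels, did not rise. Col4a1 (chromosome 8, 11198423 to 11312826) was at 60.1 and 57.6 CPM with FGF2 and 64.1 and 67.7 CPM in untreated cultures. Its log2 fold change was -0.16 (95% interval -0.32 to -0.005), with an adjusted p of 0.0955, or 0.0487 with upper quartile scaling. Col4a2 (chromosome 8, 11312805 to 11449287) was at 38.5 and 34.1 CPM with FGF2 and 44.8 and 44.9 CPM in untreated cultures. It was called lower, with a log2 fold change of -0.31 ± 0.10 and an adjusted p of 0.00571, and the adjusted p was 0.121 without FGF2 replicate 2. With GC and length offsets it was 0.198 and with DESeq2 0.132. The intervals of Col4a1 and Col4a2 did not reach those of Col4a5 or Col4a6. The ratio of Col4a1 to Col4a2 counts lay between 1.43 and 1.69 in all 4 libraries.

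**Figure D4:**
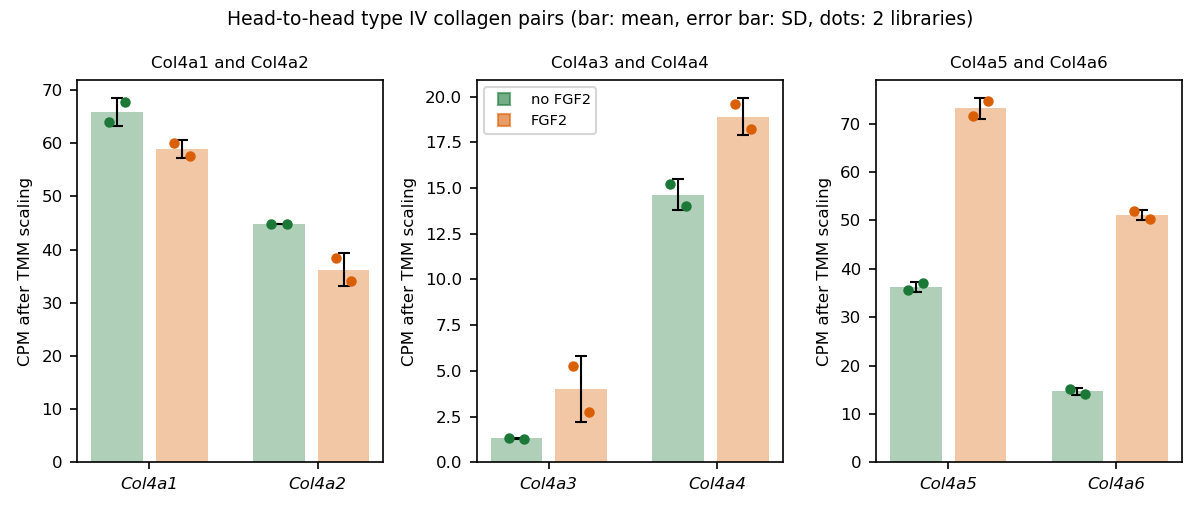
Level of the 6 type IV collagen genes in CPM, with 1 panel for each head-to-head pair. Bars are the means and error bars the SD of 2 libraries, dots are the libraries, green is untreated and orange is FGF2. The Col4a5 and Col4a6 bars rise with FGF2, from 36.3 to 73.1 CPM and from 14.7 to 51.1 CPM, while those of Col4a1 and Col4a2 lie slightly lower with FGF2.

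Of the 6 type VI genes, 5 were tested, none was higher with FGF2, 3 were lower and 2 did not pass the test, beside 20.7% higher and 19.9% lower among all genes tested. Col6a1 (chromosome 10, 76708792 to 76726168), a core chain of the beaded filament, was at 18.8 and 18.9 CPM with FGF2 and 30.5 and 31.1 CPM in untreated cultures. The replicates were close, the log2 fold change was -0.71 ± 0.12 and the adjusted p was 1.02e-07. Col6a3, the long chain that completes the filament, had 14 and 16 counts with FGF2 but 43 and 39 in untreated cultures. The log2 fold change was -1.27 ± 0.39 with an adjusted p of 0.00400, which was 0.0988 with DESeq2 and 0.0617 without untreated replicate 1. Col6a5 had 17 and 16 counts with FGF2 but 65 and 76 in untreated cultures, a log2 fold change of -1.91 ± 0.32 with an adjusted p of 2.95e-08. Its transcript shares 572 bases at 96.9% identity with that of Col6a6, so the split of reads between them is uncertain, although the counts of Col6a6 were 1 to 11.

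Col6a2, the partner of Col6a1 in the same filament, had 37 and 45 counts with FGF2 but 21 and 41 in untreated cultures. It was not called, with a log2 fold change of 0.58 (95% interval -0.05 to 1.21) and an adjusted p of 0.146. Without untreated replicate 2 the log2 fold change was 1.11 with an adjusted p of 0.0467. The interval of Col6a2 and that of Col6a1 (-0.95 to -0.46) did not overlap, although these chains are built into 1 filament and their genes lie 85161 bases apart on chromosome 10. Col6a4 had 7 to 15 counts and was not called.

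Of the FACIT genes all 9 were tested, 5 were higher with FGF2, 1 was lower and 3 did not pass the test, with a median log2 fold change of 1.33. The shares were 55.6% higher and 11.1% lower, beside 20.7% and 19.9% of all genes tested. All 5 that rose did so by more than 1 on the log2 scale, beside 5.22% of all genes tested. Col12a1 (chromosome 9, 79598991 to 79718831), which binds the surface of type I fibrils, was at 119 and 121 CPM with FGF2 and 36.8 and 39.5 CPM in untreated cultures. This was a log2 fold change of 1.65 ± 0.08 with an adjusted p of 2.36e-97. Col16a1 (chromosome 4, 130047840 to 130099283) was at 61.9 and 68.6 CPM with FGF2 and 26.1 and 26.05 CPM in untreated cultures, a log2 fold change of 1.33 ± 0.10 with an adjusted p of 2.79e-41. Both genes were thus abundant as well as changed, and their groups lay far apart. Col20a1 was at 19.2 and 15.1 CPM with FGF2 and 5.04 and 6.00 CPM in untreated cultures, with a log2 fold change of 1.63 ± 0.19 and an adjusted p of 1.63e-16. It shares 79 exonic bases with BX649560.1 on the same strand, which had 125 to 151 counts.

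Collagen IX is a cartilage FACIT collagen made of 3 different chains, and those chains did not move together. Col9a1 had 91 and 91 counts with FGF2 but 28 and 39 in untreated cultures, a log2 fold change of 1.61 ± 0.25 with an adjusted p of 1.54e-09. Col9a2 had 43 and 29 counts with FGF2 but 7 and 17 in untreated cultures, a log2 fold change of 1.76 ± 0.43 with an adjusted p of 1.91e-04. Col9a3 stood highest of them per kb in both groups and was at 14.9 and 16.8 CPM with FGF2 and 14.9 and 14.5 CPM in untreated cultures. It was not called, and its log2 fold change of 0.11 had a 95% interval of -0.19 to 0.41, below the intervals of Col9a1 (1.12 to 2.11) and Col9a2 (0.92 to 2.60). Col9a3 shares 234 bases with Tcfl5 on the opposite strand, which had 16 to 55 counts.

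Col19a1, a collagen known from hippocampal interneurons, was the FACIT gene called lower. It had 22 and 29 counts with FGF2 but 56 and 62 in untreated cultures, a log2 fold change of -1.03 ± 0.31 with an adjusted p of 0.00281, and DESeq2 gave 0.0961. Col19a1 lies tail to tail with Col9a1 on chromosome 1 with 9205 bases between them, and the pair moved in opposite directions. Their count ratio, Col9a1 over Col19a1, was 4.14 and 3.14 with FGF2 and 0.500 and 0.629 in untreated cultures. The other members not called were Col14a1 and Col22a1, with log2 fold changes of 0.09 and -0.28.

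Both tested transmembrane collagens were lower with FGF2, beside 19.9% of all genes tested. Col25a1, whose product is shed from neurons and binds amyloid, was at 12.2 and 13.8 CPM with FGF2 and 17.5 and 22.5 CPM in untreated cultures. The change was -0.62 ± 0.15 on the log2 scale with an adjusted p of 1.64e-04, and 0.0868 without untreated replicate 2. Col23a1 was at 9.04 and 8.44 CPM with FGF2 and 11.2 and 13.1 CPM in untreated cultures, a log2 fold change of -0.48 ± 0.19 with an adjusted p of 0.0278. It was called in 9 of 14 alternatives, and its adjusted p was 0.121 without FGF2 replicate 2 and 0.279 without untreated replicate 2, and 0.267 with DESeq2. Col26a1, a small collagen outside the main classes, was at 11.02 and 9.96 CPM with FGF2 and 14.1 and 16.4 CPM in untreated cultures. The log2 fold change was -0.54 ± 0.17 with an adjusted p of 0.00441, and it was called in 10 of 14 alternatives, with 0.0502 without FGF2 replicate 2 and 0.134 without untreated replicate 2, and 0.135 with DESeq2. The 6 neuron markers were all lower with FGF2 in the same libraries, beside 19.9% of all genes tested. Their median log2 fold change was -0.48, and their summed level was 2669 and 2706 CPM against 3712 and 3688 CPM. The part of neuron number in the collagen values was not tested.

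The multiplexin genes did not pass the test. Col18a1, which carries the endostatin fragment at its end, was at 4.30 and 4.07 CPM with FGF2 and 3.81 and 2.49 CPM in untreated cultures, with a log2 fold change of 0.41 (95% interval -0.22 to 1.03). Col15a1 was at 3.31 and 1.63 CPM with FGF2 and 2.66 and 3.69 CPM in untreated cultures, and the replicates spread more than the groups. Col7a1, the anchoring fibril collagen of skin, was at 4.52 and 3.15 CPM with FGF2 and 4.09 and 4.16 CPM in untreated cultures, with an adjusted p of 0.813. Col8a2 had 4 and 11 counts with FGF2 but 11 and 11 in untreated cultures, and the untested Col8a1 had 3 and 5 with FGF2 and 1 and 3 in untreated cultures. At these depths only large differences would have been detected.

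Glial markers moved with the same contrast, in which 20.7% of all genes tested were higher with FGF2 and 19.9% were lower. Of 7 astrocyte markers, 6 were higher with FGF2 and 1 was lower (Fgfr3), and their summed level was 11899 and 11805 CPM with FGF2 and 7155 and 7097 CPM in untreated cultures. All 8 tested markers of the oligodendrocyte lineage were higher, with a summed level of 1763 and 1799 CPM against 525 and 532 CPM, and Mog had 1 to 4 counts. Of 6 microglia markers, 2 were tested and both were higher, at a summed level of 10.0 and 11.1 CPM against 4.57 and 4.43 CPM. The ratio of summed levels was 1.66 for the astrocyte list and 3.37 for the oligodendrocyte lineage list, beside 1.54 for the collagen genes. Single astrocyte markers ranged from 0.738-fold (Fgfr3) to 2.09-fold (Gfap), with Gja1 at 1.16-fold and Slc1a2 at 1.19-fold. Gfap, the most abundant of them, was at 5945 and 5641 CPM with FGF2 and 2781 and 2770 CPM in untreated cultures, so it weighed most in that sum. The part of glial cells in the collagen values was not tested.

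Genes that process collagen were higher more often than lower. Of the 34 genes on the biosynthesis list, 33 were tested, 15 were higher with FGF2 and 3 were lower, which is 45.5% and 9.09% beside the 20.7% and 19.9% of all genes given above, and the median log2 fold change was 0.21. Prolyl and lysyl hydroxylases modify the chains in the endoplasmic reticulum. Of 11 genes taken by symbol (P4h, Plod or P3h) and not by enzyme activity, 7 were higher and none was lower. This was 63.6% higher, beside 20.7% of all genes tested. The higher genes were P4ha1, P4ha3, P4hb, Plod1, Plod2, Plod3 and P3h4, while P4ha2, P3h1, P3h2 and P3h3 were not called. P4ha3, a catalytic subunit of prolyl 4-hydroxylase, was at 45.8 and 50.5 CPM with FGF2 and 14.8 and 20.1 CPM in untreated cultures, with a log2 fold change of 1.46 ± 0.11 and an adjusted p of 5.87e-36. Fkbp10, a collagen-folding isomerase, was at 30.6 and 27.1 CPM with FGF2 and 14.3 and 15.2 CPM in untreated cultures, with a log2 fold change of 0.97 ± 0.13 and an adjusted p of 4.01e-12.

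Not every step moved in that direction. Serpinh1, the chaperone HSP47 that binds the folded helix, was at 87.0 and 85.1 CPM with FGF2 and 100.03 and 94.7 CPM in untreated cultures. Its log2 fold change was -0.18 ± 0.07 with an adjusted p of 0.0262, and the adjusted p was 0.0988 without FGF2 replicate 2 and 0.257 without untreated replicate 1, and 0.205 with DESeq2. Adamts2 and Adamts3, which cut the amino-terminal propeptide of fibrillar collagens, were the other genes called lower, with log2 fold changes of -0.60 ± 0.22 and -0.64 ± 0.08 and adjusted p values of 0.0190 and 8.99e-15. Adamts14, of the same family and list, was called higher, with 23 and 39 counts with FGF2 but 18 and 8 in untreated cultures. Its log2 fold change was 1.41 ± 0.44 with an adjusted p of 0.00420. For Adamts2 the adjusted p was 0.116 without FGF2 replicate 2 and 0.227 without untreated replicate 1, and 0.230 with DESeq2. Of the 5 lysyl oxidase genes, which cross-link collagen outside the cell, Loxl1 was at 14.2 and 11.1 CPM with FGF2 and 3.52 and 4.90 CPM in untreated cultures, a log2 fold change of 1.58 ± 0.22 with an adjusted p of 8.37e-12. Loxl4 stood at the upper end of the list at 1.75 with 5 to 25 counts. Lox had 12 and 6 counts with FGF2 but 14 and 7 in untreated cultures and was not called. Pcolce stood at the lower end of the list at -0.64, with 10 to 31 counts, and was not called.

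Of the 12 genes on the collagen receptor list, 10 were tested, 6 were higher with FGF2 and 1 was lower, or 60.0% and 10.0% beside 20.7% and 19.9% of all genes tested, and Itga11 and Gp6 had at most 8 counts. Adgrg6, an adhesion receptor known to bind type IV collagen, was at 45.3 and 41.7 CPM with FGF2 and 17.6 and 17.5 CPM in untreated cultures, a log2 fold change of 1.31 ± 0.12 with an adjusted p of 1.13e-27. The integrin chains Itga1 and Itga2, which pair with Itgb1 to bind collagens, had log2 fold changes of 1.10 ± 0.11 and 1.12 ± 0.16 with adjusted p values of 1.28e-20 and 7.64e-12. Itga1 was at 41.9 and 42.8 CPM with FGF2 and 18.9 and 20.5 CPM in untreated cultures, and Itga2 was at 20.9 and 22.4 CPM with FGF2 and 9.33 and 10.6 CPM in untreated cultures. The discoidin domain receptor Ddr1 was at 287 and 290.5 CPM with FGF2 and at 165 CPM in both untreated libraries, with a log2 fold change of 0.81 ± 0.05 and an adjusted p of 1.65e-62. Ddr2, which binds fibrillar collagens, was at 71.4 and 70.8 CPM with FGF2 and 53.4 and 54.2 CPM in untreated cultures, with a log2 fold change of 0.40 ± 0.08 and an adjusted p of 4.66e-06. Adgrg1, the receptor for collagen III in the developing cortex, was at 204 and 200.4 CPM with FGF2 and 233 and 224 CPM in untreated cultures, with a log2 fold change of -0.18 ± 0.05 and an adjusted p of 0.00101. Without untreated replicate 1 that adjusted p was 0.0768, and with GC and length offsets it was 0.0915.

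**Figure D5:**
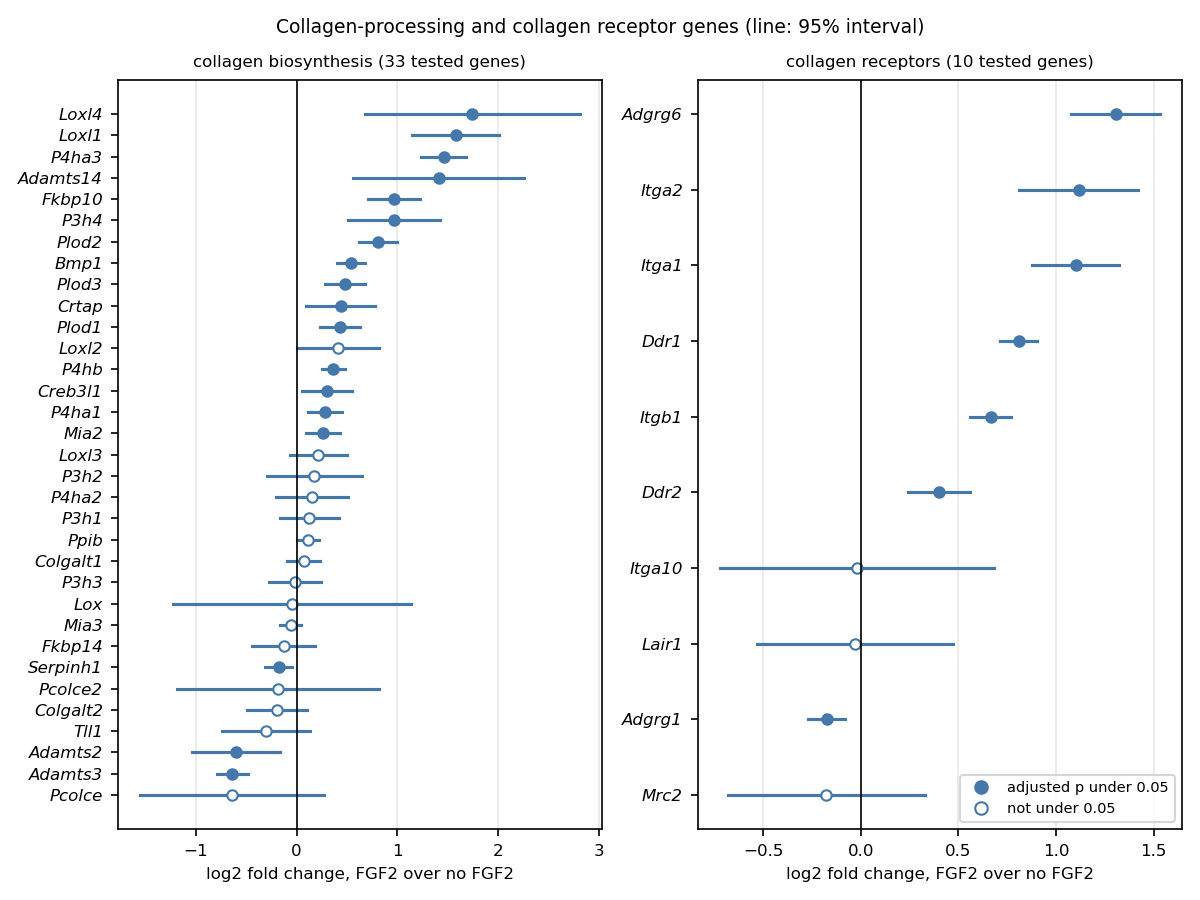
Change with FGF2 of the 33 tested genes of the collagen biosynthesis list (left) and the 10 tested collagen receptor genes (right), as log2 fold change with its 95% interval. Filled points passed the test. Most filled points lie to the right of 0, with Adamts2, Adamts3, Serpinh1 and Adgrg1 to the left of it.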

How the data were processed

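Total RNA of cultured P0 mouse PFC cells was measured in 4 libraries, 2 with FGF2 and 2 untreated. The authors mapped clean reads to mm10 with HISAT2 2.1.0, filtered the alignments at a mapping quality of 20 (Samtools), counted them per gene (HTSeq 0.11.2) and deposited raw, unscaled counts. The annotation release and strand setting are not given in the sources used here. That filter drops multi-mapping reads, which can lower the counts of genes with near-identical copies. Of 55421 listed genes, 55240 were matched by identifier to GENCODE M21, and 5 tally entries were left out. Reads in no feature made up 43.2% to 45.9% of the tallied reads. The chi-square per degree of freedom between replicates was 2.28 with FGF2 and 1.76 without, so they were kept as separate libraries.

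Counts were tested in R 4.3.3 with edgeR 4.0.16 (quasi-likelihood test, TMM, expression filter by group, robust estimation, Benjamini-Hochberg adjustment over 17144 genes). Levels are CPM after TMM scaling. The alternatives were other scalings (RLE, upper quartile, total counts), the filter omitted or set to a minimum of 10 counts per library, DESeq2 1.42.0, limma-voom 3.58.1, a block for the replicate number, GC and length offsets with and without that block, and each library left out in turn. The fits were tested on simulated counts. Near-identical stretches (at least 100 bases at 95% identity) were searched with BLAST 2.17.0. Each collagen gene with adjusted p below 0.05, absolute log2 fold change above 1 and at least 1 CPM on average was given per library. So were the 2 members of each class with the highest mean CPM, which is not scaled for length. Of the biosynthesis and receptor lists, the 3 largest changes at 5 CPM or more were given, with Serpinh1, Lox, Ddr1, Ddr2, Itga1 and Adgrg1. Other genes were named after their values were seen. The members and lists were chosen with earlier results of these data known.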

Additional observations from a re-analysis of the deposited data

How the results depend on the processing

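The 12 collagen genes called higher stayed between 10 and 13 when single libraries were left out and between 11 and 13 under the other alternatives. The 11 called lower fell to 5 with DESeq2, which lost Col19a1, Col23a1, Col26a1, Col4a2, Col5a3 and Col6a3 among them, and to 7 with GC and length offsets together with the replicate block. Leaving out single libraries gave 7 to 11 lower calls, with 7 both without FGF2 replicate 2 and without untreated replicate 2. Over all genes the count of 6949 calls fell to 3999 with DESeq2 and ranged from 5213 to 6199 with a library left out. The biosynthesis calls went from 18 to 10 with DESeq2 and to 12 to 15 with a library left out, and the receptor calls stayed at 6 to 7. The median log2 fold change of the collagen genes was -0.008 to 0.09 with a library left out. The replicate numbers are shared between the groups, but the labels do not say that they pair the libraries, and the correlation of same-numbered deviations over 12651 genes was 0.0048. With the replicate block, 12 collagen genes were higher, 11 lower and 6814 genes were called in all, and the same 23 collagen genes were called. The sign changed for 7 genes, none of which was called. Col11a2 was at -0.0015 with upper quartile scaling. Col7a1 was at 0.062 with GC and length offsets and at 0.056 with the replicate block added. With a library left out, the log2 fold changes ranged from -0.18 to 0.21 for Col11a2, -0.050 to 0.23 for Col14a1, -0.97 to 0.051 for Col15a1, -0.60 to 0.069 for Col6a4, -0.39 to 0.13 for Col7a1, -1.21 to 0.11 for Col8a2 and -0.69 to 0.55 for Lox. The cause of these shifts was not tested. Col1a2 and Col9a2 have no value under the minimum of 10 counts. Genes under about 20 counts, such as Col1a2 with FGF2 and Col9a2 without FGF2, rest on few reads, and the limits given for counts of 0 cover counting error only.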
